A study of Mus musculus with 4 samples.

Results

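Accessible DNA after stimulation was described in BALB/c mouse CD8+ T cells by setting 2 stimulated libraries against 2 unstimulated ones, which are all 4 libraries of the series. The stimulated side consisted of cells stimulated for 2 h with ionomycin and the phorbol ester PMA, in 1 library untreated otherwise and in 1 library treated with phenelzine. The unstimulated side likewise consisted of 1 untreated and 1 phenelzine-treated library. Phenelzine inhibits monoamine oxidases and the histone demethylase LSD1, and it was thus present on both sides. The series title calls the cells tumour-infiltrating, while the sources used here do not give the tumour, the sort of the cells or the number of animals. ATAC-seq was used, in which the Tn5 transposase places sequencing adapters into open DNA, and the result was a list of peaks for each library. Peaks that overlapped by at least 1 bp were merged across the 4 lists, and each merged region was classed by how many stimulated lists and how many unstimulated lists held it. Of 15237 regions, 896 stood in both stimulated lists but in no unstimulated list, and they are the main subject here. The reverse, both unstimulated lists and neither stimulated list, applied to 123 regions.

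PMA and ionomycin bypass the T cell receptor. PMA takes the place of diacylglycerol and activates protein kinase C and RasGRP proteins, which feed the MAP kinase, AP-1 and NF-kB pathways. Ionomycin lets calcium into the cell, so that calcineurin activates the NFAT factors. Immediate early genes such as those of the Fos, Jun, Egr and Nr4a families are transcribed without new protein synthesis, and much of the opening of chromatin in activated T cells is known to take place at distal sites bound by AP-1 and NFAT.

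The sequences below are the parts of 7 regions that lay in the promoter window of the gene named, from 250 bases before to 50 after the start site in RefSeq (GRCm38.p6, the assembly of mm10). The first 6 were held by both stimulated lists alone and the last by both unstimulated lists alone. They are examples: promoters of signal response genes beside those of C1d, the strongest promoter region of both stimulated lists alone, and Jarid2. By strength Jarid2 stood below Slc39a1 and Slc22a5, which are not shown. The stretches of Prkca, Ppp3r1, Pfkl and Plekha8 had no match to the motifs marked here and are not shown either. The matches below therefore do not give the share of such promoters with a motif. Capitals mark matches on either strand to TGACG, the core of the cAMP response element (CRE) bound by CREB and ATF factors, to the full CRE TGACGTCA, which contains that core, and to the NFAT core TGGAAA. The AP-1 motif TGANTCA and the NF-kB motif, GGG and TTCC with 3 free bases between them, were searched as well and had no match in these stretches.
Nr4a3, chr4:48045055-48045129, plus strand: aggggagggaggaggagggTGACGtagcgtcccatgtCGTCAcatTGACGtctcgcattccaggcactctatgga
Nr4a2, chr2:57124116-57124253, minus strand: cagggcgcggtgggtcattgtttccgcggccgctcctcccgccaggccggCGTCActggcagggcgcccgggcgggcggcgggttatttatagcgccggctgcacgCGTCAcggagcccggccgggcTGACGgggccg
Prkcd, chr14:30626185-30626355, minus strand: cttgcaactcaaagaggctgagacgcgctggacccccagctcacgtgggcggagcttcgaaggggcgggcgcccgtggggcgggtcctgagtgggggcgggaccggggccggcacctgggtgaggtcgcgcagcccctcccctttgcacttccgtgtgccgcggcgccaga
Spred2, chr11:19924192-19924412, plus strand: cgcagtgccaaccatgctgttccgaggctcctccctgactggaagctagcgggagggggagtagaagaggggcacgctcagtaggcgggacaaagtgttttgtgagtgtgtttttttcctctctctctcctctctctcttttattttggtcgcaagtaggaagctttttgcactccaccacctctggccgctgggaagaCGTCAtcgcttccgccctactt
C1d, chr11:17257540-17257653, plus strand: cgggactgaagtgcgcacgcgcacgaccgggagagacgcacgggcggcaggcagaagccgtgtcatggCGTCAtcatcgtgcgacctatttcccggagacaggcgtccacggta
Jarid2, chr13:44731230-44731320, plus strand: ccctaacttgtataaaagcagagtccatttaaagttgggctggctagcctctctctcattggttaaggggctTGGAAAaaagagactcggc
Nfkbid, chr7:30422292-30422381, plus strand: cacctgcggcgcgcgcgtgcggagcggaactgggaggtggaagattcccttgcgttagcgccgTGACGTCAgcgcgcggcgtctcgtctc
The stretch of the Nr4a3 promoter carried 3 such cores within 75 bases, and that of Nr4a2 carried 3 within 138 bases. The full CRE occurred in that of Nfkbid alone among these 7.

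The regions of both stimulated lists alone made up 5.88% of all merged regions, and those of both unstimulated lists alone 0.807%. Most regions did not divide by stimulation. All 4 lists held 4085 regions, both stimulated lists and 1 unstimulated list 1510, 1 stimulated list alone 4708, and 1 unstimulated list alone 1937. Another 1435 were held by 1 list of each side, and 543 by 1 stimulated list and both unstimulated lists. The stimulated lists were the longer ones, with 10405 peaks (untreated) and 9322 (phenelzine) on chromosomes 1 to 19 and X, against 6519 (untreated) and 7929 (phenelzine) in the unstimulated lists. When each list was cut to its 6519 strongest peaks, 332 regions were held by both stimulated lists alone and 296 by both unstimulated lists alone. The excess on the stimulated side was thus 7.29-fold with the lists as deposited and 1.12-fold with lists of equal length. Equal lengths in part set such a balance, since both sides then hold equal numbers of peaks. List length moved with stimulation, and its part in the result was not tested. Reads per library are not in the files, so depth is unknown. The 2 libraries of a side differ in the drug and are not replicates, and no p-value was computed: with 2 against 2 an exact permutation test has 6 arrangements and cannot give a two-sided p below 0.333.

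**Figure D1:**
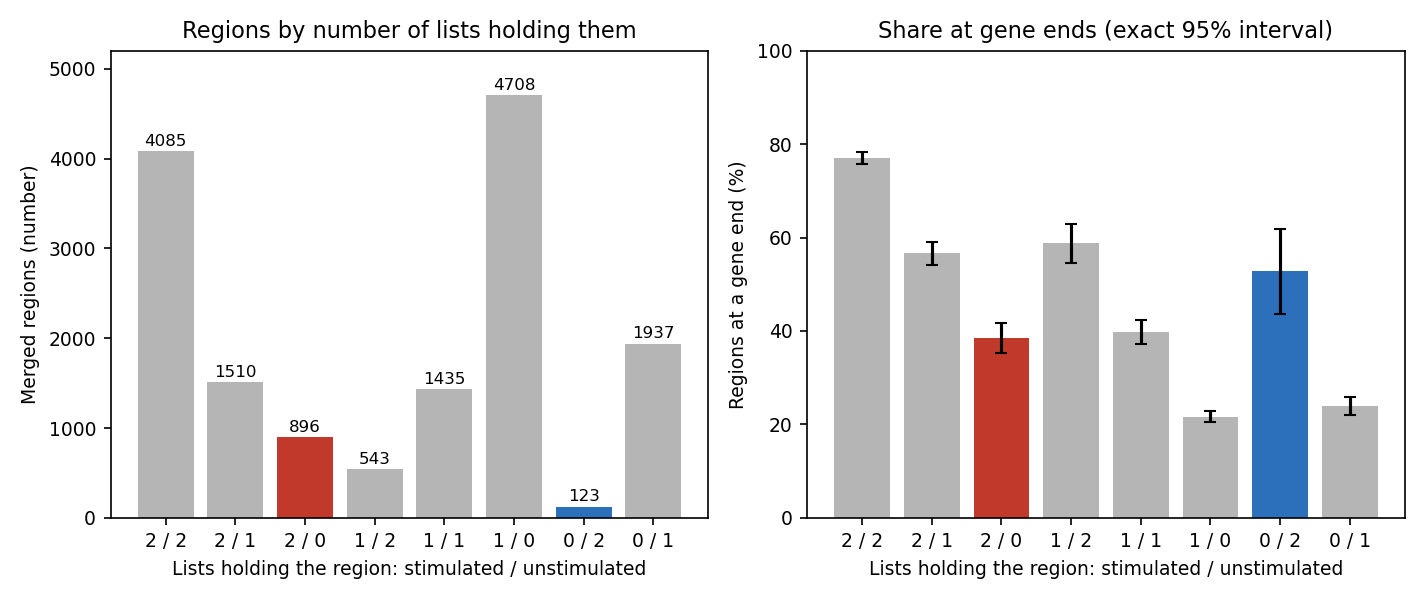
Left: number of merged regions by how many stimulated and how many unstimulated lists hold them. Right: share of those regions at a gene end, in percent, with exact 95% intervals for counting error. Regions of both stimulated lists alone (896, red) outnumber those of both unstimulated lists alone (123, blue) and lie at gene ends less often than regions held by all 4 lists. Their share there is 38.5%, against 39.7% for regions held by 1 list of each side.

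The 896 regions were narrower and weaker than those of all 4 lists. Their median merged width was 169 bp, against 277 bp for the regions of all 4 lists and 158 bp for those held by 1 list of each side. A merged region spans the peaks of every list that holds it, so this width tends to rise with the number of lists. It is no measure of an effect of stimulation. Their median −log10 q, the peak caller's confidence as deposited by the authors, was 2.36 in the stimulated untreated list and 2.12 in the stimulated phenelzine list. In the regions of all 4 lists it was 4.78 and 3.94 in those libraries. Over both stimulated lists together the median was 2.25 for the 896 regions. It was 2.28 for the stimulated peaks of regions held by 1 list of each side. Within its list the median member of the 896 stood at percentile 35.8 of −log10 q (stimulated untreated) and 33.8 (stimulated phenelzine), so typical members came from the lower part of both lists. The weakest members had −log10 q of 1.02 (stimulated untreated) and 1.01 (stimulated phenelzine), close to the lowest value of any peak in those lists. Regions that just missed the authors' limit on the unstimulated side cannot be seen in such lists. In 516 regions −log10 q was higher in the stimulated untreated list and in 380 it was higher in the stimulated phenelzine list. An unstimulated peak lay within 500 bp of 31 of the 896 regions (3.46%), and the median distance to the closest one was 32518 bp.

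A value of at least 3 in both stimulated lists was reached by 88 of the 896 regions (9.82%), and by 7 of the 123 on the unstimulated side (5.69%, in both unstimulated lists). By position, 38.5% of the 896 regions (exact 95% interval 35.3 to 41.8) lay at a gene end, meaning within 1 kb of the start or the end of a protein-coding gene. In the regions of all 4 lists that share was 77.1% (75.8 to 78.4), and in those of 1 stimulated list alone 21.7% (20.5 to 22.9). Regions held by 1 stimulated and 1 unstimulated list, thus also by 2 lists, lay there in 39.7% (37.2 to 42.3). The share of the 896 was thus near that of regions that 2 lists held without a division by stimulation. Regions of both unstimulated lists alone lay at gene ends in 52.8% (43.6 to 61.9). The order of the stimulated and unstimulated sides was not stable: with lists of equal length the shares were 55.7% (stimulated) and 51.7% (unstimulated). Without the unstimulated untreated library they were 46.2% and 26.7%, and without the unstimulated phenelzine library 47.5% and 28.8%. Of the remaining regions of both stimulated lists alone, 261 lay in gene bodies, 115 within 20 kb of a gene end outside any body, and 175 farther away. Strength and position went together: of the 88 strong regions, 54 lay at gene ends (61.4%, 50.4 to 71.6), against 36.0% of the other 808. The intervals cover counting error only. By chromosome the regions of both stimulated lists alone made up between 4.53% of all regions on chromosome 17 and 7.73% on chromosome 18, and the interval of each chromosome included the 5.88% of the whole.

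**Figure D2:**
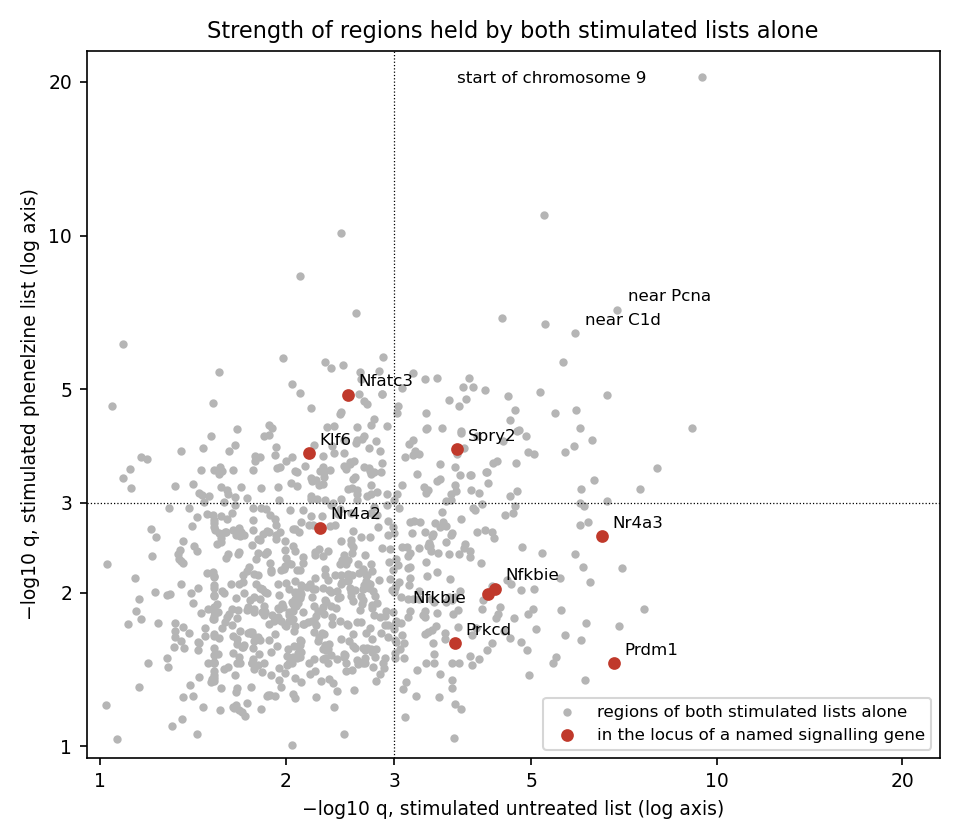
Each point is a region of both stimulated lists alone, placed by its −log10 q in the stimulated untreated list (x) and in the stimulated phenelzine list (y), both on log axes. Dotted lines mark 3; 88 of the 896 regions lie above both, and of the labelled signalling genes (red) Spry2 is the one whose region does so.

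Taking the lower of the 2 within-list percentiles as the rank, the strongest member lay on chromosome 9 from 3022136 to 3022222, 313009 bp from the nearest gene end. Its −log10 q was 9.48 (stimulated untreated) and 20.5 (stimulated phenelzine), and an unstimulated peak lay 1249 bp away. The folds of this region were 4.879 (stimulated untreated) and 5.998 (stimulated phenelzine), lower than those of the next member. Whether its reads map to a single place in the genome was not tested. The next member lay 382 bp from an end of Pcna, the sliding clamp of DNA replication, on chromosome 2 from 132252683 to 132252798. Its −log10 q was 6.90 (stimulated untreated) and 7.16 (stimulated phenelzine), with folds of 6.71 and 6.97, and an unstimulated peak lay 375 bp from it. At the promoter of C1d, a cofactor of the nuclear exosome, the values were 5.88 and 6.44, and no unstimulated peak lay within 45845 bp. The promoter region of Slc39a1, a zinc importer, had 5.62 and 5.66.

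Further promoters were among the 10 strongest. Slc22a5, the gene of a carnitine transporter, had −log10 q of 5.91 (stimulated untreated) and 4.56 (stimulated phenelzine), and Plekha8, a glycolipid transfer protein gene, 5.47 and 4.50. Jarid2, an accessory subunit of Polycomb repressive complex 2, had 5.16 and 4.94, with an unstimulated peak 477 bp away. Another 2 regions lay 1529 bp from Gm4832 and 12652 bp from Tmem121. None of these 10 belonged to the lists of T cell or signalling genes used here.

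Gene loci were classed in the same way, a locus being the gene body with 20 kb on either side. Of 21631 protein-coding genes, 565 (2.61%) had peaks in both stimulated lists and in no unstimulated one, and 65 (0.3%) had the reverse. Of the 12572 genes with any region these were 4.49% and 0.517%. In 404 of the 565 loci (71.5%) both stimulated lists shared a region, and these loci shared 304 distinct regions among them. In the other 161 the stimulated lists had peaks at different places. At least 1 region of both stimulated lists alone lay in 1201 loci (5.55% of all genes, and 9.55% of genes with any region), and 797 of these loci also had unstimulated peaks elsewhere. For the unstimulated side 201 loci (0.929%) had such a region. With lists of equal length, 283 loci had peaks on the stimulated side alone and 211 on the unstimulated side alone.

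Pigu, a subunit of the transamidase that attaches proteins to GPI anchors, had the most shared regions among loci open on the stimulated side alone. It had 3 regions in stimulated untreated cells and 3 in stimulated phenelzine cells, against 0 in both unstimulated libraries. The region at its promoter, on chromosome 2 from 155357124 to 155357585, had −log10 q of 4.83 (stimulated untreated) and 2.46 (stimulated phenelzine). A second region in its body had 3.99 and 3.40. The tubulin ligase-like gene Ttll12 had 2 and 5 regions on the stimulated side, against 0 and 0, and its promoter region had 6.02 and 3.19. Znrf3, which encodes a ubiquitin ligase that removes Wnt receptors, had 2 and 2 against 0 and 0. Its stronger region (8.01 and 3.50) lay 14502 bp outside the gene, at an end of Kremen1.

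Arid5a, the gene of an RNA-binding protein that stabilises cytokine transcripts, had 3 and 2 regions on the stimulated side, against 0 and 0. Its promoter region had −log10 q of 3.45 (stimulated untreated) and 1.69 (stimulated phenelzine), and a region 2002 bp outside the gene had 4.15 and 2.98. The neighbours Ubxn11, Cd52 and Crybg2 on chromosome 4 each had 2 and 2 against 0 and 0. Cd52 encodes a GPI-anchored glycoprotein of lymphocytes. These 3 genes owed their count in part to a single region at the promoter of Ubxn11 (3.59 and 2.88). Rad51c, a gene of homologous recombination, and its neighbour Tex14 likewise shared both of their regions. The remaining named loci with 2 regions of both stimulated lists alone were Creb3l1, Ctsl (cathepsin L), Pik3c2b (a phosphoinositide kinase), Yipf1, Syce2 and Cab39, a partner of the kinase LKB1. In 19 of the 565 loci there were 2 or more such regions.

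The immediate early and AP-1 list had 20 genes, of which 3 had a region of both stimulated lists alone, against 5.55% of all genes and 9.55% of those with a region, and 0 had one of both unstimulated lists alone. In 5 (25.0%) the locus held more regions after stimulation in both drug arms, against 7.19% of all genes and 12.4% of genes with a region. None had fewer in both arms, against 0.698% of all genes. With lists of equal length, Nr4a3 alone of the 3 kept its region, and 1 gene had more regions in both arms while 2 had fewer. No locus of this list was open on the stimulated side alone, and 13 had peaks in all 4 libraries. Summed over the list, there were 45 regions in stimulated untreated cells and 35 in stimulated phenelzine cells, against 29 in unstimulated untreated and 31 in unstimulated phenelzine cells. This list and those below were chosen with earlier results of these data known, so their shares are descriptive only.

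Nr4a3, a nuclear receptor gene of the early response to antigen, had 3 regions in stimulated untreated cells and 2 in stimulated phenelzine cells, against 0 in unstimulated untreated and 1 in unstimulated phenelzine cells. The promoter region shown above spanned 48045015 to 48045129 on chromosome 4 and had −log10 q of 6.51 (stimulated untreated) and 2.58 (stimulated phenelzine). A second region, 1536 bp upstream of the gene body, was held by both stimulated lists (2.84 and 2.94) and by the unstimulated phenelzine list (2.79). So the unstimulated phenelzine library was not without peaks at this gene. Its relative Nr4a2 had 1 and 1 against 0 and 1, and its promoter region had 2.27 and 2.68. The unstimulated peak at Nr4a2 lay in the gene body instead (1.81). Nr4a1, the third member of the family, had 3 and 2 against 2 and 3, with no region on either side alone.

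Klf6, a zinc-finger factor gene of the early response, had 4 regions in stimulated untreated cells and 3 in stimulated phenelzine cells, against 2 and 2 in unstimulated cells. Its region of both stimulated lists alone lay 16122 bp outside the gene (2.18 and 3.75). Myc, which promotes the growth of activated cells, had 3 and 2 against 1 and 1, yet none of its 3 regions fell to the stimulated side alone. Each of the 2 regions held by both stimulated lists was also held by 1 unstimulated list. The AP-1 gene Fosb had 3 and 5 against 2 and 3, while its promoter region was held by all 4 lists. Its −log10 q was 3.73 (stimulated untreated) and 1.95 (stimulated phenelzine), against 4.95 (unstimulated untreated) and 5.69 (unstimulated phenelzine), values that belong to separate lists and are not compared. Fos had 4 and 1 against 2 and 2, and its promoter region was held by the stimulated untreated list alone (3.50). Jun had 2 and 1 against 1 and 1, and Junb 3 and 3 against 2 and 3. None of the early growth response genes had more regions in both arms: Egr1 had 1 and 1 against 1 and 2, Egr2 1 and 1 against 1 and 0, and Egr3 2 and 0 against 2 and 2.

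**Figure D3:**
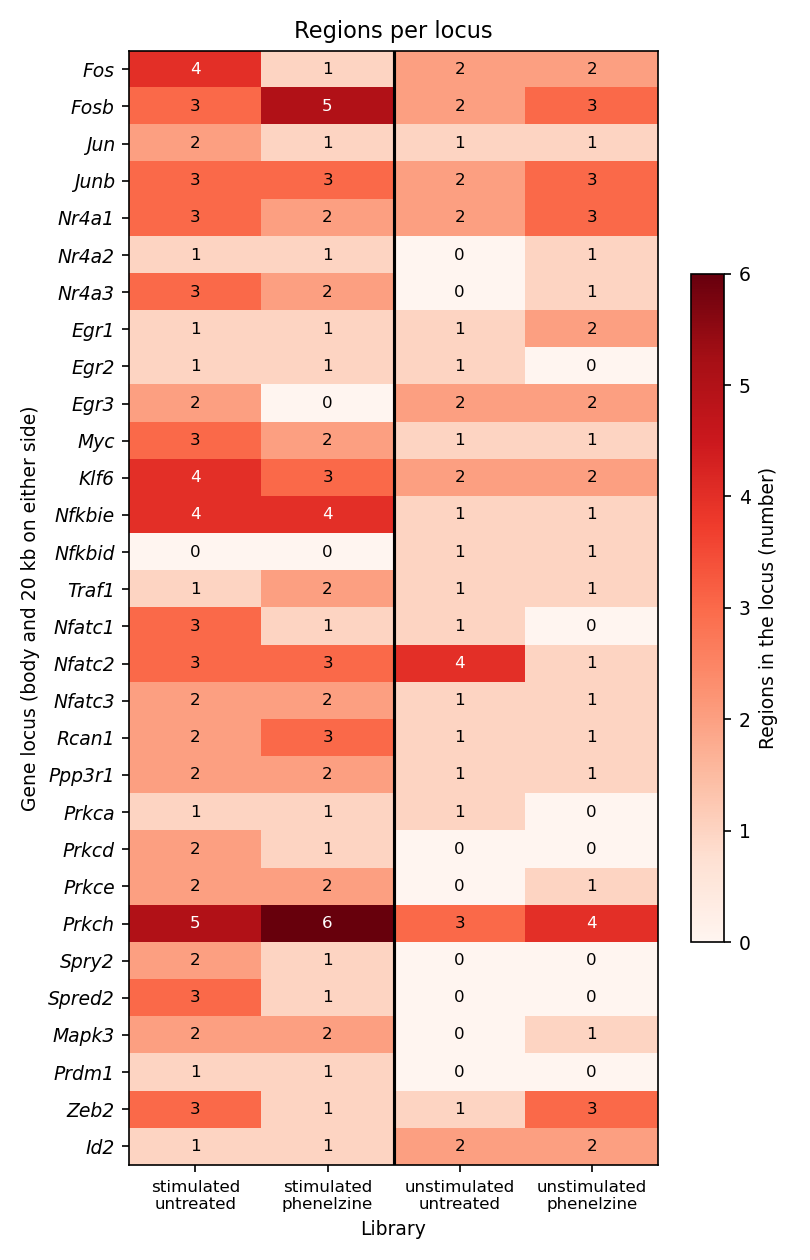
Number of regions in the locus of 30 signalling and effector genes in each of the 4 libraries, stimulated libraries left of the line. Spry2, Spred2, Prkcd and Prdm1 have regions in both stimulated libraries and 0 in both unstimulated libraries, Nfkbid has the reverse, and Fos and Zeb2 differ in direction between the drug arms.

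The list of protein kinase C and Ras activation genes holds targets of PMA and also other Ras regulators, Rasa1, Sos1 and Sos2. Of 12 members, 4 (33.3%) had a region of both stimulated lists alone, against 5.55% of all genes and 9.55% of those with a region. Prkcq, Rasgrp1 and Rasgrp2 had 0 regions in all 4 libraries. The shares of this and the other lists were not adjusted for locus length, and Prkca, Prkce and Prkch are long genes. Prkcd, the gene of protein kinase C delta, had 2 and 1 regions on the stimulated side, against 0 and 0. Its promoter region had −log10 q of 3.75 (stimulated untreated) and 1.59 (stimulated phenelzine). Prkca, which encodes protein kinase C alpha, had 1 and 1 against 1 and 0, with a promoter region of 1.93 and 3.86. Prkce (epsilon) had 2 and 2 against 0 and 1, and Prkch (eta) 5 and 6 against 3 and 4. Prkch had 2 regions of both stimulated lists alone, which were weak in the stimulated untreated list (1.36 and 1.05). With lists of equal length, 0 of 12 members had a region of both stimulated lists alone. With −log10 q of at least 3 the count was 1, but none of the regions counted above reached 3 in both stimulated lists. The 1 came from a Prkch region that all 4 lists held as deposited. Its stimulated peaks had 3.12 (untreated) and 5.24 (phenelzine), and its unstimulated peaks, 1.49 and 2.11, fell below the minimum.

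The NFAT and calcium list had 17 genes, 4 of them (23.5%) with a region of both stimulated lists alone, against 5.55% of all genes and 9.55% of those with a region. More regions in both arms were found in 5 (29.4%), against 7.19% and 12.4%. Summed over the list there were 32 regions in stimulated untreated cells and 29 in stimulated phenelzine cells, against 20 in unstimulated untreated and 19 in unstimulated phenelzine cells. Nfatc3, an NFAT factor gene, and Ppp3r1, which encodes the regulatory subunit of calcineurin, each had 2 and 2 against 1 and 1. The Ppp3r1 promoter region had 2.22 (stimulated untreated) and 1.49 (stimulated phenelzine). That near Nfatc3 (2.52 and 4.88) lay 19747 bp from the gene, at the promoter of Pla2g15. Rcan1, which encodes a regulator of calcineurin, had 2 and 3 against 1 and 1, with its shared region in the gene body (2.02 and 2.28). Nfatc2 had 3 and 3 against 4 and 1, and its region of both stimulated lists alone lay in the gene body (2.52 and 2.11). Nfatc1 had 3 and 1 against 1 and 0 without such a region. With lists of equal length 2 of 17 members, Nfatc2 and Nfatc3, had a region of both stimulated lists alone, and 1 had more regions in both arms.

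Among 16 MAP kinase feedback genes, 3 (18.8%) had a region of both stimulated lists alone, against 5.55% of all genes and 9.55% of those with a region. In 4 (25.0%) there were more regions in both arms, against 7.19% and 12.4%. Of the 3, Spry2 alone kept its region with lists of equal length, and 1 gene had more regions in both arms. Spry2 and Spred2 encode inhibitors of the Ras and MAP kinase cascade, and both loci were open on the stimulated side alone. Spry2 had 2 regions in stimulated untreated cells and 1 in stimulated phenelzine cells, against 0 and 0. Its shared region, at the gene end on chromosome 14 from 105897312 to 105897461, had −log10 q of 3.79 (stimulated untreated) and 3.82 (stimulated phenelzine). It was the strongest in both lists at any gene of these signalling lists by the rank used above. Spred2 had 3 and 1 against 0 and 0, with a weak promoter region of 1.28 and 1.98. Mapk3, which encodes the kinase ERK1, had 2 and 2 against 0 and 1. Its shared region lay at the promoter of the neighbouring gene Ypel3 (2.31 and 3.44), and the glycolytic gene Aldoa owed its count to the same region.

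In the NF-kB pathway 2 of 16 genes (12.5%) had a region of both stimulated lists alone, against 5.55% of all genes and 9.55% of those with a region. Another 2 had a region of both unstimulated lists alone, against 0.929% of all genes. The first count was 1 with lists of equal length. Nfkbie, the gene of the inhibitor IkB epsilon, had 4 and 4 regions on the stimulated side, against 1 and 1. The region between Nfkbie and its neighbour, at the promoter of Slc35b2, had −log10 q of 4.25 (stimulated untreated) and 1.99 (stimulated phenelzine), and another 10104 bp outside the gene had 4.36 and 2.04. Traf1, an NF-kB target and signalling adaptor gene, had 1 and 2 against 1 and 1. In the other direction, Nfkbid, which encodes a nuclear IkB protein, had 0 and 0 regions on the stimulated side, against 1 and 1. This promoter region, shown above, had 2.75 (unstimulated untreated) and 2.77 (unstimulated phenelzine). Rela, the gene of the p65 subunit, had 1 and 0 against 1 and 1, with a region of both unstimulated lists alone 673 bp from the gene. Nfkbia, the gene of IkB alpha, had 2 and 2 against 1 and 2.

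Of 10 effector transcription factor genes, Prdm1 and Zeb2 had a region of both stimulated lists alone, against 5.55% of all genes and 9.55% of those with a region. Neither kept it with lists of equal length. Prdm1, the gene of the repressor Blimp-1, had 1 and 1 regions on the stimulated side, against 0 and 0. The region lay 941 bp from the gene on chromosome 10 from 44529499 to 44529617, with 6.82 (stimulated untreated) and 1.46 (stimulated phenelzine). Zeb2 had 3 and 1 against 1 and 3. Id2 had 1 and 1 against 2 and 2, and its region of both unstimulated lists alone lay 1560 bp from the gene (1.76 and 2.53).

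No member of 6 lists of T cell genes had a region of both stimulated lists alone. These were 15 cytokine and chemokine genes, 12 cytotoxic granule genes, 12 activation receptors, 12 inhibitory receptor and exhaustion genes, 12 naive and memory genes, and 15 T cell receptor and CD8 identity genes. Many of these loci had no region in any list, as for 8 of the 15 cytokine genes, 8 of the 12 cytotoxic genes and 8 of the 12 activation receptors. Ifng, Il2, Cd69, Il2ra and Gzmb, textbook targets of this stimulus or effector genes, were among those with 0 regions in all 4 libraries. Cd8a and Cd8b1 had 0 as well, so the CD8 label could not be checked at these genes. Regions were present at Cd3d, Cd3e, Cd3g, Cd247 and Lck. The neighbouring chemokine genes Ccl3 and Ccl4 each had 2 and 1 regions on the stimulated side, against 1 and 0, counted from the same places. Tnf had 0 and 0 against 0 and 1, and Tcf7, a naive T cell factor gene, 0 and 1 against 1 and 0. The genes of LSD1 complexes and monoamine oxidases also had 0 of 14 members with a region of both stimulated lists alone, as had 4 lists of markers of other cells, and Kdm1a had 0 and 1 against 0 and 1.

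**Figure D4:**
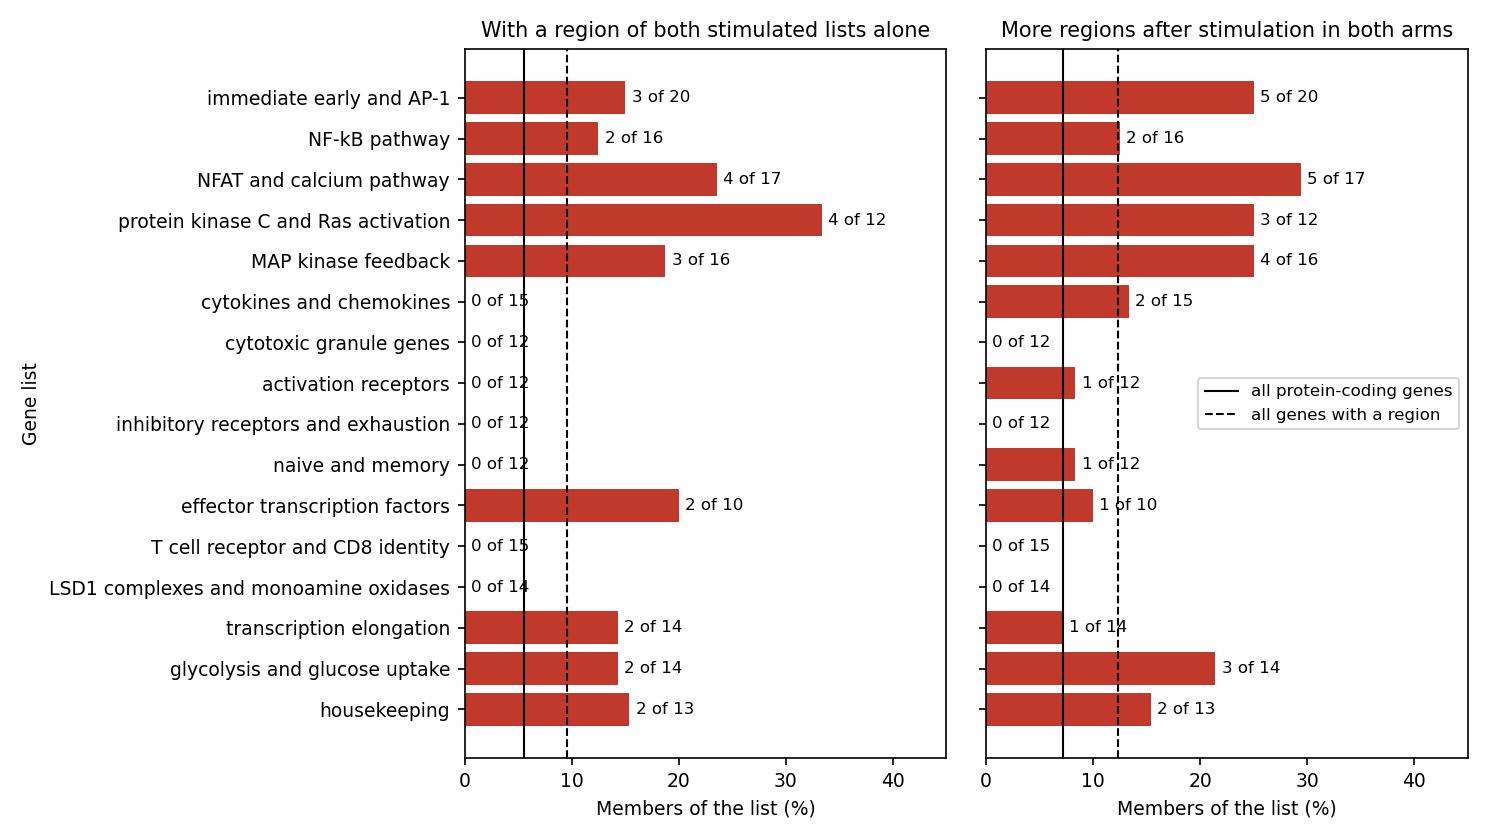
Share of the members of each gene list, in percent, with a region of both stimulated lists alone (left) and with more regions after stimulation in both drug arms (right). Numbers give members of all members; the solid line marks all protein-coding genes (5.55% and 7.19%) and the dashed line all genes with a region (9.55% and 12.4%), and the housekeeping list lies above both lines in both panels.

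Further lists also had shares above the 9.55% of genes with a region, but below those of the protein kinase C (33.3%) and NFAT (23.5%) lists. More regions in both arms were found in 15.4% of housekeeping, 21.4% of glycolysis and 7.14% of transcription elongation genes. The share was 7.19% of all genes and 12.4% of genes with a region. Of 13 housekeeping genes, 2 (15.4%), Actb and Polr2a, had a region of both stimulated lists alone. The same was true of 2 of 14 glycolysis genes (14.3%), Pfkl and Aldoa, and of 2 of 14 transcription elongation genes, Cdk9 and Ell2. The Pfkl region lay at its own promoter (3.08 and 1.96), and the Actb region 12882 bp outside the gene (4.01 and 1.45). Cdk9, whose kinase acts on paused RNA polymerase, had 6 and 2 regions on the stimulated side, against 0 and 2, and its shared region lay at the promoter of Fpgs. Elongation genes also included members with fewer regions in both arms, Supt5, Supt6 and Aff4. The Aff4 promoter region was held by both unstimulated lists alone (2.05 and 2.06).

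Markers of other cells were checked in the same loci. B cell markers, 8 genes, had 6 and 2 regions on the stimulated side (untreated and phenelzine), against 5 and 3. For 10 myeloid markers the sums were 12 and 8 against 5 and 10, and for 7 CD4 and regulatory T cell markers 6 and 4 against 3 and 3. For 6 NK cell markers they were 1 and 1 against 0 and 0, for 8 epithelial markers 2 and 3 against 1 and 1, and for 8 stromal and endothelial markers 2 and 4 against 0 and 2. Foxp3, Klrb1c and Krt8 were open on the stimulated side alone, in each case at different places in the 2 libraries. Defining genes such as Itgam, Csf1r, Epcam and Col1a1 had 0 regions in all 4 libraries. The regions of both stimulated lists alone at the myeloid marker Csf3r (1.81 in stimulated untreated and 1.94 in stimulated phenelzine) and the stromal marker Prrx1 (1.53 and 1.87) were weak. The part of other cells in the results was not tested, and in such bulk libraries fewer cells with an open site and a less open site per cell cannot be told apart.

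Across all 22 lists, 26 of 267 distinct genes (9.74%) had a region of both stimulated lists alone, against 5.55% of all genes. Of the 191 list genes with any region these were 13.6%, against 9.55% of all such genes. The lists were chosen with earlier results of these data known, so these shares are descriptive and no test of the lists. Loci open on the stimulated side alone numbered 7 of 267 (2.62%), against 2.61% of all genes, a share near the background.

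Promoter windows were compared by sequence. A region of both stimulated lists alone overlapped 340 windows of 314 genes, some of which had several start sites. The median GC content of these windows was 62.0%, against 62.7% in 3473 windows with a region of all 4 lists and 53.0% in 14328 windows without a region. The CRE core occurred in 37.9% (32.8 to 43.3) of windows of both stimulated lists alone, in 43.8% (42.1 to 45.4) of those of all 4 lists, and in 23.8% of all 21045 windows. AP-1 motifs occurred in 3.82% (2.05 to 6.45), 3.71% and 7.04%, in the same order, and NF-kB motifs in 5.0% (2.94 to 7.89), 5.82% and 5.82%. The full CRE occurred in 3.24%, 4.75% and 2.26%. For the NFAT core the shares were 19.7% (15.6 to 24.3), 13.7% (12.6 to 14.9) and 19.5%.

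The CCAAT box (CCAAT), bound by NF-Y, occurred in 36.8% (31.6 to 42.1) of windows of both stimulated lists alone and in 52.8% (51.1 to 54.4) of those of all 4 lists, against 38.5% of all windows. The ETS motif CCGGAAG occurred in 24.7% (20.2 to 29.6), 26.9% (25.4 to 28.4) and 11.7%. The E-box CACGTG occurred in 11.2% of windows of both stimulated lists alone and 7.91% of all. The EGR motif GCGNGGGCG occurred in 12.1%, against 9.82% in windows of all 4 lists and 7.60% of all. The GC box GGGCGG occurred in 72.9%, 74.9% and 46.7%, and the CArG box, which serum response factor binds, in 0.882%, 1.30% and 1.54%, in the order of both stimulated lists alone, all 4 lists and all windows. The interval for the CCAAT box lay below that of windows held by all 4 lists and the interval for the NFAT core above it, while those for the ETS motif and the CRE core overlapped. Windows of 1 gene can overlap, and a match is a run of letters only. Distal regions were not searched, since no genome sequence was used here.

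**Figure D5:**
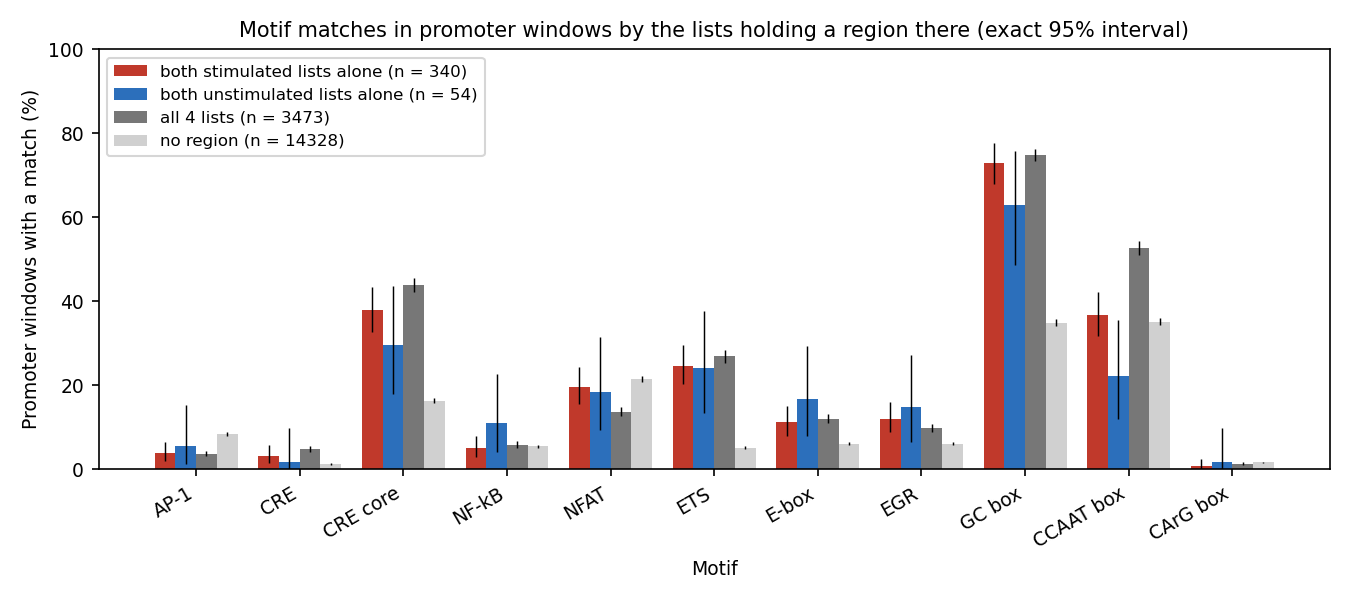
Share of promoter windows, in percent, with at least 1 match to each motif on either strand, by which lists hold a region in the window; bars give the shares and lines their exact 95% intervals for counting error. Windows of both stimulated lists alone (red) have 36.8% with a CCAAT box, against 52.8% for windows of all 4 lists (dark grey) and 22.2% for those of both unstimulated lists alone (blue).

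On the unstimulated side, 2810004N23Rik and Gnpat shared the promoter region with the highest rank, on chromosome 8 from 124862998 to 124863098. Its −log10 q was 5.85 (unstimulated untreated) and 4.94 (unstimulated phenelzine), and no stimulated peak lay within 34617 bp. The promoter region of Pnpt1, a mitochondrial polynucleotide phosphorylase gene, had 4.34 and 5.28, and that of the histone gene H4c4 4.22 and 3.64. The others among the 6 strongest lay 7283 bp from the integrin gene Itgav, where a stimulated peak lay 721 bp away, at Naxe and at Ttpal. Among loci open on the unstimulated side alone, Ttc24 had 0 and 0 regions on the stimulated side, against 2 and 2. Both lay outside the gene, 10808 bp away at the promoter of Naxe and 3639 bp away at that of Iqgap3. Others were 2810004N23Rik, Ttpal, Cdyl (a chromodomain corepressor), Wdr44, Aplp1 and Hcst. Aplp1 and Hcst (the receptor adaptor DAP10) owed their place to the Nfkbid promoter region.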

How the data were processed

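Libraries were grouped by their titles. The submitters' processing notes name mm10, MACS2, HOMER, Picard, Bowtie2 2.2.5 and Trimmomatic 0.33. Their settings and filters are not given in the sources. The authors deposited 1 broad-peak list per library, each named for its own library per the file's peak names. The deposited score is 10 times −log10 q, rounded down; the deposited fold enrichment is a ratio over local background; its p-value and q-value columns, as deposited, are −log10 values. Peak names carry a tag, less120, whose meaning is not given.

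Coordinates are mm10, counted from 1. Chromosomes 1 to 19 and X were used; 33 peaks on Y were set aside. Peaks overlapping by 1 bp were merged with pandas 2.3.3 in Python 3.11.15. Genes and promoter windows came from RefSeq, GRCm38.p6. Intervals are exact binomial at 95% (scipy 1.17.1). Merging was tested on simulated data. Members and lists were chosen with earlier results of these data known. Named genes are, by fixed rule, the 15 and 8 top loci, the 10 and 6 top regions, list members with a region on 1 side alone, and 25 genes chosen whatever their values; 1 of these regions and 1 of these loci are not reported here. Motif shares and counts in both arms were added after values were seen. Alternatives changed the −log10 q minimum, list length, overlap, joining gap, locus flank, gene-end window and libraries.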

Additional observations from a re-analysis of the deposited data

Results flagged for a closer look

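At 6 named loci stimulated minus unstimulated region counts had opposite signs in the 2 drug arms. With 1 library per condition these differences were not tested. At Fos the stimulated minus unstimulated difference was 2 regions in untreated cells and −1 in phenelzine-treated cells, a difference between the arms of 3. At Zeb2 it was 2 and −2, a difference of 4, and at Nr4a1 1 and −1, a difference of 2. In the other direction, Nfatc2 had −1 in untreated and 2 in phenelzine-treated cells, a difference of −3. Tcf7 and the myeloid marker Csf3r each had −1 and 1, a difference of −2. Among all protein-coding genes, 1185 loci had opposite directions in the 2 arms, against 1556 with more regions after stimulation in both arms and 151 with fewer in both.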

How the results depend on the processing

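The counts depended on which peaks entered. With −log10 q of at least 3, regions of both stimulated lists alone numbered 459, loci open on the unstimulated side alone 98, genes with more regions in both arms 982, and the gene-end shares were 69.7% (stimulated) and 75.9% (unstimulated). Of the 896 regions, 88 reached that value in both stimulated lists, so most of the 459 had other patterns before the minimum was set. With lists of equal length the counts were 332 regions on the stimulated and 296 on the unstimulated side, 283 and 211 loci, 563 and 471 genes with a region on 1 side alone, and 584 and 475 genes with more and with fewer regions in both arms, and 55.7% of the stimulated and 51.7% of the unstimulated regions lay at gene ends. Of the 896 regions, 272 (30.4%) were kept with lists of equal length, as were 84 of the 123. Most of the 296 on the unstimulated side thus had other patterns before the lists were cut. With 50 kb flanks, genes with a region on 1 side alone were 2006 (stimulated) and 322 (unstimulated), and genes with more regions in both arms 2646. With gene bodies alone these were 580, 94 and 685, with 80 genes having fewer in both arms.

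Leaving out a library turns both lists of its side into a single list, which raised each of these counts. Regions ranged from 1460 to 3603 (stimulated side) and 306 to 1399 (unstimulated side), loci from 1095 to 1560 and 220 to 432, genes with a region on 1 side alone from 2122 to 3934 and 512 to 1673. Gene-end shares ranged from 26.2% to 47.5% and from 26.7% to 59.5%. Without the unstimulated untreated library, which had the shortest list, 1460 regions fell to the stimulated side and 1399 to the unstimulated side. Counts in both arms could not be made without a library. Requiring 50% overlap, joining peaks 100 bp apart or a 500 bp gene-end window left the counts over all regions and genes that each could change within 1.5 times and each gene-end share within its interval. Of 53 counts of regions on 1 side alone at single named genes, 43 went to 0 with −log10 q of at least 3, 24 with gene bodies alone, 23 with lists of equal length and 3 with 50% overlap, which lowered 8. The counts in both arms and the single-gene alternatives were chosen after seeing the data.

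No paired analysis was possible because the counts come from no test and each condition has 1 library. The drug arms do pair the libraries, and differences within each arm are given as values. Depth limits what a missing peak shows, since reads per library are not in the files.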

Other observations

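The 88 regions with −log10 q of at least 3 in both stimulated lists included several at genes outside the lists, named here after their values were seen. At the promoter of Phc3, a subunit of Polycomb repressive complex 1, the values were 9.12 (stimulated untreated) and 4.21 (stimulated phenelzine). Gmnn, the gene of the replication licensing inhibitor geminin, had a gene-end region of 3.96 and 5.26. The class I gene H2-Q4 had a promoter region of 7.51 and 3.19, where reads of near-identical neighbours cannot be told apart. Psmf1 and Psmd7, proteasome genes, had 6.64 and 3.02 and 3.29 and 3.74. The clock gene Per1 had a region of 3.17 and 3.91 at a promoter, and Bag3, a stress-induced cochaperone gene, one of 3.24 and 3.78. In the body of Irak2, a kinase gene of the NF-kB pathway not on the list used, the values were 3.98 and 3.40.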
